A study of Homo sapiens with 4 samples.

Results

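The 50 genes described here encode proteins of the extracellular matrix and the enzymes that modify, crosslink or degrade it, and they were looked up by NCBI Gene ID among the 18882 gene IDs of the RNA-Seq libraries. They were chosen as a functional group of symbols, with earlier results of these data known. Reads were listed for 49 of them, MMP9 was not analysed here, and 40 had enough reads to be tested. BT-474 is an established human breast cancer cell line that the labels call luminal B-like. The control group was 2 libraries of wild-type, untransfected cells (control 1 and control 2), and the NRP-1 group was 2 libraries of BT-474 NRP-1 cells (NRP-1 2 and NRP-1 3, numbered as in the labels). BT-474 NRP-1 cells carry a plasmid for stable overexpression of neuropilin-1, were selected with Geneticin and were isolated as colonies. Since the sequenced controls carried no plasmid and no selection, NRP-1 and the transfection and selection cannot be told apart in these libraries. By quantitative PCR, the study reported similar TNC expression in empty-plasmid and wild-type cells, but no empty-plasmid cells were sequenced. Whether the NRP-1 libraries came from 1 clone is not given in the sources used here. Nothing in the sources states that the libraries of a group came from separate cultures, so the p-values measure only the spread between these samples.

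The extracellular matrix is the protein network outside cells. In an epithelium the nearest layer is the basement membrane, a sheet of laminins and type IV collagen joined by nidogens and heparan sulphate proteoglycans, and beneath it lies a stroma of fibrillar collagens and microfibrils. Matricellular proteins such as tenascin-C and thrombospondin-1 are placed in the matrix but act mainly by changing how cells adhere, lysyl and prolyl hydroxylases and lysyl oxidases stabilise collagen, and metalloproteinases and their inhibitors (TIMPs) govern its breakdown. Most stromal matrix in breast tissue is made by fibroblasts, while luminal cells make part of the basement membrane.

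NRP1 had 7 and 8 reads in controls versus 103 and 62 in NRP-1 cells, and its log2 fold change was 3.38 (SE 0.42, adjusted p = 0.044 from edgeR). NRP1 is the overexpressed gene and passed the filter on low counts through the NRP-1 libraries, so these values only check the labels. Library totals lay between 8243595 and 8448926 reads. The keratins KRT8, KRT18 and KRT19 and the receptor ERBB2 were abundant in every library, and all 9 luminal markers had reads. Of 9 fibroblast markers, 6 had no reads in any library, and the summed level of the whole list lay between 0 and 0.15 FPKM (reads scaled to gene length and library size, a level per length). The basal and myoepithelial list lay between 2.68 and 5.89 FPKM in sum. On it KRT5 had at most 1 read, but other members had reads in every library. TP63 had 12 and 43 reads in controls versus 40 and 74 in NRP-1 cells, and MYH11 42 and 47 versus 54 and 85. OXTR had 55 and 55 versus 16 and 63, and none of these 3 was called by edgeR or DESeq2. The matrix reads were thus measured in libraries in which the defining markers of fibroblasts were at or near 0. In both groups, fewer cells that express a gene and less RNA per cell cannot be told apart.

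Among the matrix genes, TNC rose and LAMA3 fell in BT-474 NRP-1 cells by edgeR's quasi-likelihood test (Benjamini-Hochberg adjusted p under 0.05 over the 14298 genes tested). That was 2 of the 40 matrix genes tested, 1 in each direction, against 1.09% of all genes tested in either direction, 0.413% higher and 0.678% lower. DESeq2 on the same counts called 9 of the 40, which were TNC, COL12A1, TGFBI and VCAN higher, and LAMA3, COL6A2, COL7A1, LTBP3 and TIMP2 lower, against a background of 6.8% in either direction, 2.86% higher and 3.94% lower. Of the 40 genes, 16 were higher and 24 were lower by sign, with a median log2 fold change of -0.24, where the median of all genes tested was 0.02. The absolute log2 fold change was at least 1 for 12 matrix genes, against 8.21% of all genes, and its median was 0.54 against 0.27. The groups did not overlap for 12 matrix genes with both NRP-1 libraries above the controls and for 19 below them, where the background was 27.9% above, 28.3% below and 56.2% in either direction. An unadjusted edgeR p under 0.05 was found for 23 of the 40, against 22.9% of all genes. For 1 gene alone, 2 libraries a group allow no exact permutation p (two-sided) under 0.33, and the tests therefore come from models over all genes. Neither TNC nor LAMA3 was called when control replicate 1 or control replicate 2 was left out, whereas 27 members were called without NRP-1 replicate 2 and 21 when NRP-1 replicate 3 was omitted, in fits that called 5402 and 4134 of all genes. TNC, COL12A1 and TNXB are also on lists of genes that the study chose from these same libraries, so their counts are not independent evidence of a direction.

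**Figure D1:**
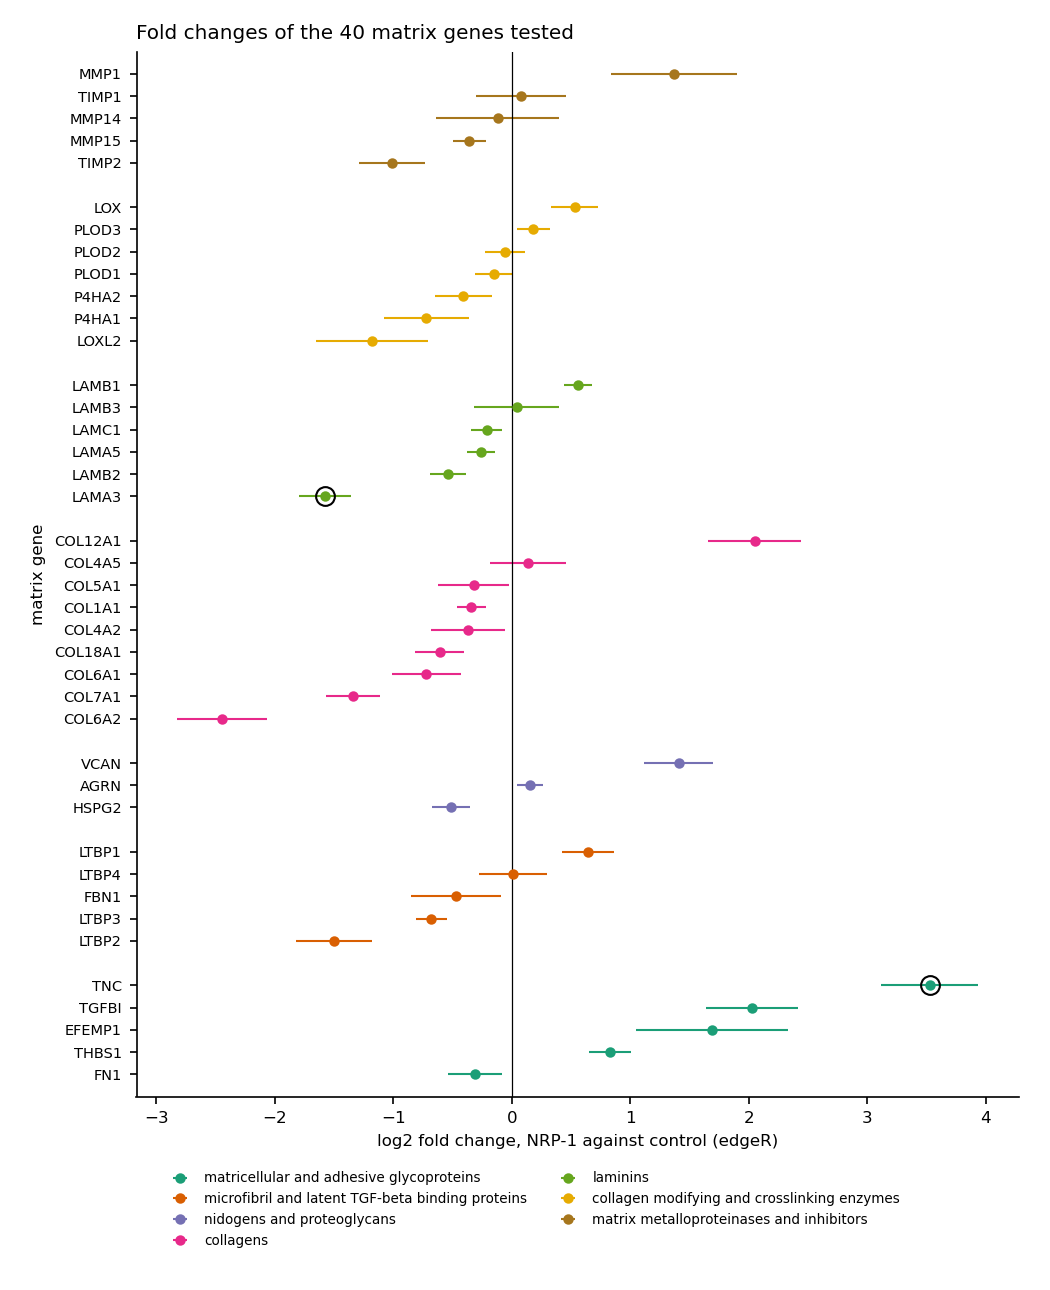
log2 fold change of each of the 40 matrix genes tested, NRP-1 against control, grouped by class on the vertical axis; points are edgeR estimates, bars are 1 standard error and open circles mark an edgeR adjusted p under 0.05. TNC (3.53) lies farthest to the right and COL6A2 (-2.45) farthest to the left, and the 2 circled genes are TNC and LAMA3.

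Tenascin-C (TNC) and collagen XII (COL12A1) are matrix proteins of strained and healing tissue, collagen XII being a collagen that sits on the surface of fibrils. Both had higher values in each NRP-1 library than in each control library. Promoter windows of the RefSeq table for GRCh38.p14 were found for 41 of the 50 members, and the bases just upstream of the annotated start are shown for the 2 members with the highest estimated fold change. Capitals mark matches, on either strand, to the AP-1 motif TGACTCA, the TATA box motif TATAAA or the GC box motif GGGCGG.
TNC: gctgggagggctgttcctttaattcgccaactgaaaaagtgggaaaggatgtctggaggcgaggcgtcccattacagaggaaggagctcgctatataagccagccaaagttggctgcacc
COL12A1: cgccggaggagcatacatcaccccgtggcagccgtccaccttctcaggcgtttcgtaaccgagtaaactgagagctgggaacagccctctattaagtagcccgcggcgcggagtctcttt
The TNC stretch is chr9:115118158-115118277 and the COL12A1 stretch is chr6:75206054-75206173, both on the minus strand, each of 120 bases. Neither holds a match to these 3 motifs, which says only that these exact letters are not in these bases. The TNC stretch does hold tatataag, a near form that the exact motif TATAAA does not match. Over the longer windows of 250 bases before and 50 after the start, both genes hold a GC box match.

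TNC had 45 and 69 reads in controls versus 449 and 923 in NRP-1 cells. Its level was 6.97 ± 2.02 CPM (read counts scaled to library size; SD, n = 2) in control cells and 80.6 ± 39.3 CPM in BT-474 NRP-1 cells. The NRP-1 libraries lay far above the controls and differed from each other by 1.04 on the log2 scale. The log2 fold change was 3.53 (SE 0.41, adjusted p = 0.0435 from edgeR), with adjusted p-values from 1.59e-17 to 0.109 over the alternatives that kept all libraries. Leaving out NRP-1 replicate 3 gave 2.92 and leaving out NRP-1 replicate 2 gave 3.94, and the call was lost when either control library was left out, as were all calls of the 14298 genes. Per length, TNC lay below fibronectin (FN1) in the controls and above it in the NRP-1 libraries, FN1 being the adhesive glycoprotein to which tenascin-C binds. The FPKM ratio of TNC to FN1 was 0.447 and 0.546 in controls and 5.07 and 9.03 in NRP-1 cells. FN1 had 86 and 101 reads in NRP-1 cells, compared with 99 and 124 in controls, and its log2 fold change of -0.31 did not pass the test (SE 0.23, adjusted p = 0.458 from edgeR).

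COL12A1 had 95 and 168 reads in controls versus 386 and 746 in NRP-1 cells. The order of the libraries was that of TNC, with NRP-1 3 highest and control 1 lowest. The log2 fold change was 2.05 (SE 0.39, adjusted p = 0.068 from edgeR), which DESeq2 called and edgeR did not, and adjusted p-values over the alternatives that kept all libraries ran from 6.02e-06 to 0.141. Relative to the chain of collagen I encoded by COL1A1, COL12A1 stood at an FPKM ratio of 0.0278 and 0.0509 in controls and 0.13 and 0.298 in NRP-1 cells.

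The other matricellular and adhesive glycoproteins with enough reads were TGFBI, which binds collagens and integrins, EFEMP1, a fibulin, and thrombospondin-1 (THBS1). TGFBI had 20 and 36 reads in controls versus 148 and 90 in NRP-1 cells, with a log2 fold change of 2.03 (SE 0.39, adjusted p = 0.0684 from edgeR), and DESeq2 called it. THBS1 had 256 and 251 reads in NRP-1 cells, compared with 150 and 124 in controls, a log2 fold change of 0.83 (SE 0.18, adjusted p = 0.0796 from edgeR). The groups did not overlap for either gene. EFEMP1 was near the detection limit, with 6 reads in each control library and 30 and 11 in NRP-1 cells, and its log2 fold change of 1.69 (SE 0.64) was 0.79 without NRP-1 replicate 2. Only the NRP-1 libraries had enough EFEMP1 reads to pass the filter on low counts. SPARC, a collagen-binding protein abundant in fibroblasts, had no reads in the control libraries and 1 read in each NRP-1 library. In controls THBS1 was the glycoprotein with the highest level per length, at 3.09 and 2.54 FPKM. In BT-474 NRP-1 cells TNC had the highest mean of the class, at 6.14 and 12.55 FPKM, although TGFBI stood close to it in NRP-1 2, at 6.27 and 3.79 FPKM.

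**Figure D2:**
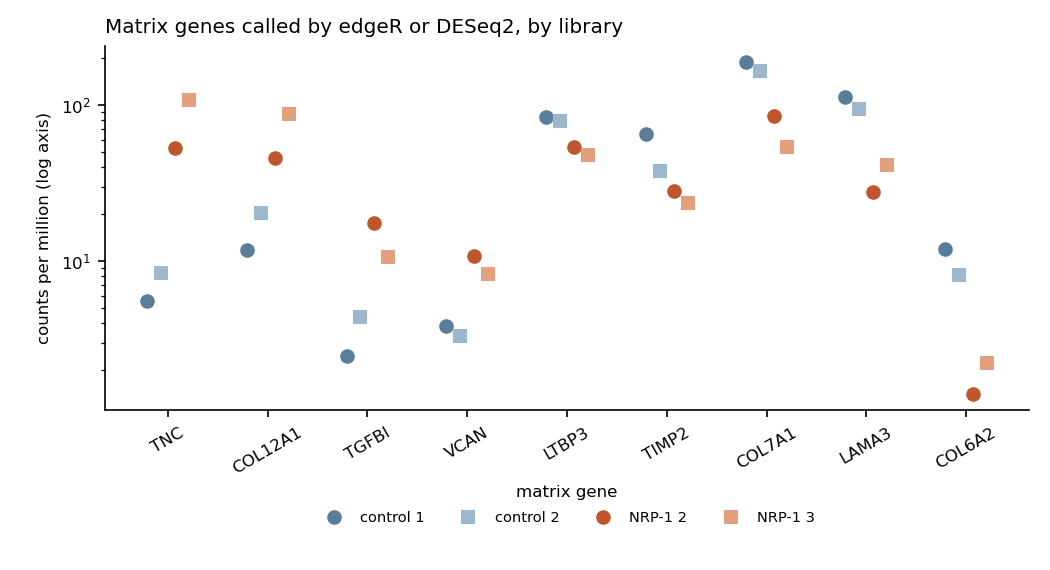
CPM in each library (log axis) of the 9 matrix genes called by edgeR or DESeq2, ordered by fold change; each point is 1 library. TNC lies at 5.54 and 8.4 CPM in the controls against 52.8 and 108 CPM in the NRP-1 libraries. The groups do not overlap for any of the 9, as for 56.2% of all genes tested. Since the 9 were picked by tests on these same libraries, that adds no evidence.

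The laminins are trimers of an alpha, a beta and a gamma chain. LAMA3 encodes the alpha chain of the laminin found in hemidesmosomes, the junctions that hold epithelial cells to the basement membrane, and COL7A1 encodes collagen VII, which forms the anchoring fibrils beneath them. Both were lower in each NRP-1 library than in each control library, as was COL6A2, a chain of the beaded filaments of collagen VI. The upstream bases are shown for LAMA3, the laminin that fell, and COL6A2, the member with the lowest fold change, with the same 3 motifs in capitals.
LAMA3: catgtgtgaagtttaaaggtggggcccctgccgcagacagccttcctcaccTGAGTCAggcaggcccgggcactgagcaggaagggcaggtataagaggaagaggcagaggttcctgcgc
COL6A2: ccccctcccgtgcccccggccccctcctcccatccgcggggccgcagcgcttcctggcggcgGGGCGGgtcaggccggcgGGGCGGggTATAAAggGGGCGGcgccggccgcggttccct
The LAMA3 stretch is chr18:23872900-23873019 and the COL6A2 stretch is chr21:46097992-46098111, both on the plus strand in GRCh38.p14 and each of 120 bases. LAMA3 holds an AP-1 match that begins 69 bases before the start. COL6A2 holds a TATA box match that begins 32 bases before the start, with GC box matches that begin 58, 40 and 24 bases before it. Over the whole windows of 250 bases before and 50 after the start, an AP-1 match was found in 2 of 41 members (4.88%) and 4.92% of all 27305 windows, a TATA box match in 3 (7.32%) and 11.95%, and a GC box match in 34 (82.9%) and 44.6%. The full set of windows was not restricted to genes measured here. A match is a description of the letters, and other starts of these genes were not examined. LAMA3 has 4 annotated transcripts, and which of them begin at the start used here was not examined.

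LAMA3 had 909 and 776 reads in controls versus 234 and 353 in NRP-1 cells. The groups did not overlap, and the control libraries were closer to each other. The estimated log2 fold change was -1.58 (SE 0.22, adjusted p = 0.0467 from edgeR), with adjusted p-values from 3.22e-07 to 0.114 over the alternatives that kept all libraries, and it lay between -1.91 and -1.33 with 1 library left out. LAMA3 has transcripts of different length, and the length weighted by their estimated shares was 8804 and 9015 bases in controls and 9569 and 9339 bases in NRP-1 cells. The weighted length was thus longer in both NRP-1 libraries, a measure that was not tested.

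LAMB3, the beta chain that pairs with LAMA3, did not pass the test. It had 86 and 52 reads in controls versus 57 and 91 in NRP-1 cells, and the groups overlapped. COL7A1 had 1526 and 1348 reads in controls versus 728 and 458 in NRP-1 cells. Its log2 fold change was -1.34 (SE 0.23, adjusted p = 0.0604 from edgeR), and DESeq2 called it, with adjusted p-values from 2.28e-05 to 0.133 over the alternatives that kept all libraries.

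The broadly expressed laminin chains had smaller fold changes. LAMA5, the alpha chain of most epithelial basement membranes, had 1837 and 1765 reads in controls versus 1517 and 1607 in NRP-1 cells (log2 fold change -0.26, SE 0.12, adjusted p = 0.246 from edgeR), so the FPKM ratio of LAMA3 to LAMA5 was 0.643 and 0.557 in controls and 0.184 and 0.269 in NRP-1 cells. The 2 beta chains that pair with it, LAMB1 and LAMB2, went opposite ways by sign. LAMB1 had 941 and 886 reads in NRP-1 cells, compared with 600 and 590 in controls (log2 fold change 0.56, SE 0.12, adjusted p = 0.076 from edgeR). LAMB2, the laminin gene with the highest mean FPKM, had 1132 and 1012 reads in controls versus 838 and 704 in NRP-1 cells (log2 fold change -0.54, SE 0.15, adjusted p = 0.109 from edgeR). Neither chain passed the test, and their FPKM ratio, LAMB1 to LAMB2, was 0.525 and 0.578 in controls and 1.11 and 1.25 in NRP-1 cells. LAMC1, the common gamma chain, had a log2 fold change of -0.21 (SE 0.13).

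**Figure D3:**
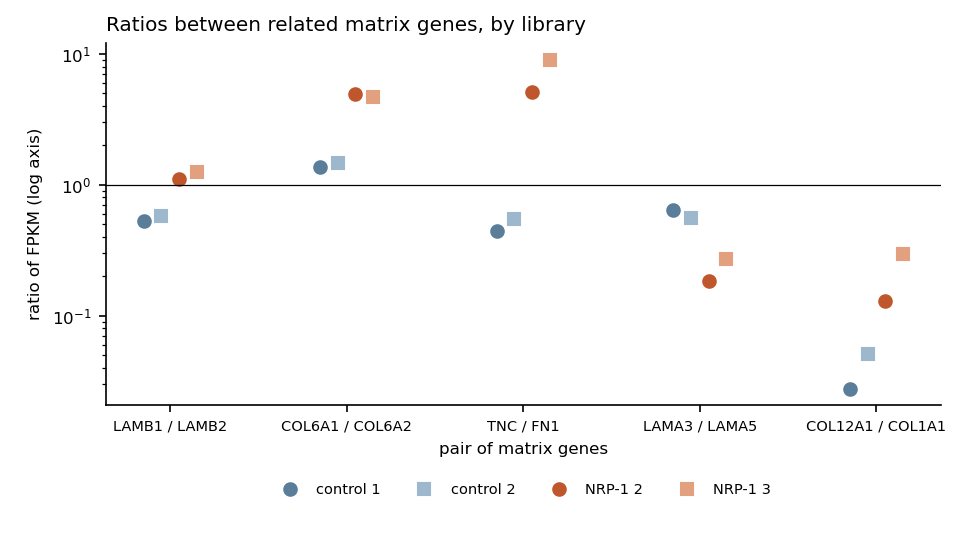
Ratio of FPKM between pairs of related matrix genes in each library (log axis, line at a ratio of 1); each point is 1 library. LAMB1 to LAMB2 and TNC to FN1 lie below 1 in both control libraries and above 1 in both NRP-1 libraries, and LAMA3 to LAMA5 lies lower in both NRP-1 libraries.

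COL6A2 had 97 and 67 reads in controls versus 12 and 19 in NRP-1 cells. The log2 fold change was -2.45 (SE 0.38, adjusted p = 0.0521 from edgeR), which DESeq2 called and edgeR did not, and adjusted p-values ran from 0.000359 to 0.114 over the alternatives that kept all libraries. COL6A1, the chain it assembles with, had 72 and 109 reads in NRP-1 cells, compared with 165 and 121 in controls (log2 fold change -0.72, SE 0.29, adjusted p = 0.212 from edgeR). The FPKM ratio of COL6A1 to COL6A2 was 1.37 and 1.47 in controls and 4.9 and 4.65 in NRP-1 cells.

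Of the 10 collagens, 9 were tested, 2 were higher and 7 lower by sign, and no collagen passed edgeR's test. COL1A1, a chain of fibrillar collagen I, was the most abundant of them, with 1739 and 1740 reads in controls and 1513 and 1357 in NRP-1 cells (log2 fold change -0.34, SE 0.12, adjusted p = 0.177 from edgeR). COL1A2, the other chain of collagen I and one of the fibroblast markers, had 1 and 0 reads in controls versus 0 and 1 in NRP-1 cells, so these cells were measured with reads of 1 chain of collagen I almost alone. COL18A1, a basement membrane collagen whose fragment is endostatin, had 720 and 711 reads in controls versus 383 and 591 in NRP-1 cells (log2 fold change -0.61, SE 0.21, adjusted p = 0.17 from edgeR). COL5A1, which sets the width of collagen I fibrils, had log2 fold change -0.32 (SE 0.3), and its groups overlapped.

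Type IV collagen, the network of the basement membrane, was scarce. COL4A1 had 10 and 9 reads in the control and 5 reads in each NRP-1 library, too few to be tested, and COL4A2 had 29 and 38 reads in NRP-1 cells, compared with 42 and 41 in controls (log2 fold change -0.37, SE 0.31, adjusted p = 0.518 from edgeR). Both chains were lower in each NRP-1 library by a few reads. They form 1 protein trimer and their genes start head to head, with 126 bases between the RefSeq starts, chr13:110307158-110307283 in GRCh38.p14. That shared stretch, read on the strand of COL4A2 with its 1 GC box match in capitals, is shown because it is upstream of both genes.
COL4A1 and COL4A2: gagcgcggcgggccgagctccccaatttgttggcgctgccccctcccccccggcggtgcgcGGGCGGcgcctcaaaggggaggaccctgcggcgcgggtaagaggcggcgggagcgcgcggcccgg
COL4A5, a chain of a different type IV trimer, had 35 and 27 reads in controls versus 38 and 33 in NRP-1 cells, and its groups overlapped.

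Nidogens and proteoglycans link the laminin and collagen networks or fill the stroma. The stromal proteoglycan versican (VCAN) had 31 and 27 reads in controls versus 91 and 70 in NRP-1 cells, a log2 fold change of 1.41 (SE 0.29, adjusted p = 0.0728 from edgeR), and DESeq2 called it. Agrin (AGRN), a heparan sulphate proteoglycan and the most abundant of its class, had 1765 and 1720 reads in NRP-1 cells, compared with 1489 and 1517 in controls, a log2 fold change of 0.15 (SE 0.11, adjusted p = 0.461 from edgeR). Perlecan (HSPG2), the large heparan sulphate proteoglycan of basement membranes, had 940 and 932 reads in controls versus 597 and 777 in NRP-1 cells, with a log2 fold change of -0.51 (SE 0.16, adjusted p = 0.142 from edgeR). The nidogens were barely present, NID1 with 1 read in all 4 libraries together and NID2 with 11 and 9 reads in the control and 6 and 5 in the NRP-1 libraries. BGN, the small proteoglycan biglycan, had between 1 and 9 reads in a library. None of these 3 was tested.

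Latent TGF-beta binding proteins (LTBPs) hold inactive TGF-beta in the matrix and bind to fibrillin microfibrils. The family had fold changes of both signs. LTBP3, the most abundant, had 682 and 651 reads in controls versus 457 and 409 in NRP-1 cells, a log2 fold change of -0.68 (SE 0.13, adjusted p = 0.068 from edgeR), and DESeq2 called it. LTBP2, which binds fibrillin but not latent TGF-beta, had 23 and 17 reads in NRP-1 cells, compared with 54 and 55 in controls (log2 fold change -1.5, SE 0.32, adjusted p = 0.0752 from edgeR). LTBP1 lay on the other side of zero, with 174 and 194 reads in the control and 243 and 356 in NRP-1 cells (log2 fold change 0.64, SE 0.22, adjusted p = 0.169 from edgeR), and LTBP4 overlapped between groups with a log2 fold change of 0.01 (SE 0.29). The fibrillin FBN1 had 78 and 76 reads in controls versus 79 and 37 in NRP-1 cells, so its lower mean came from NRP-1 3 alone. FBN2 had between 0 and 8 reads and the microfibril protein MFAP2 a single read in NRP-1 2.

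Of the 7 collagen modifying and crosslinking enzymes, all were tested and none was called by edgeR or DESeq2. P4HA1, a catalytic subunit of prolyl 4-hydroxylase, which stabilises the collagen helix, had the highest mean FPKM of all 50 members. It had 1173 and 1054 reads in the control, 981 reads in NRP-1 2 and 427 reads in NRP-1 3. The estimated log2 fold change of -0.72 (SE 0.36, adjusted p = 0.298 from edgeR) became -0.24 when NRP-1 replicate 3 was left out and -1.46 when NRP-1 replicate 2 was. The second catalytic subunit, P4HA2, was also lowest in NRP-1 3, with 626 and 556 reads in controls and 570 and 356 in NRP-1 cells. The lysyl hydroxylases PLOD1, PLOD2 and PLOD3, which prepare collagen for crosslinking, had log2 fold changes of -0.15, -0.06 and 0.18. Among the lysyl oxidases, which form the crosslinks, LOX had 156 and 215 reads in controls versus 294 and 264 in NRP-1 cells (log2 fold change 0.53, SE 0.2, adjusted p = 0.197 from edgeR). LOXL2 had 8 and 13 reads in NRP-1 cells, compared with 28 and 18 in controls (log2 fold change -1.18, SE 0.47, adjusted p = 0.212 from edgeR), and was -0.82 without control replicate 1. In the control group alone, both libraries had enough LOXL2 reads to pass the filter on low counts, which limits what its fold change means.

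The metalloproteinases and their inhibitors did not pass edgeR's test. MMP15, a metalloproteinase of the cell membrane, led the class with 847 and 858 reads in controls and 754 and 632 in NRP-1 cells (log2 fold change -0.36, SE 0.14, adjusted p = 0.196 from edgeR). TIMP2, which inhibits metalloproteinases and also takes part in activating MMP2, had 530 and 311 reads in controls versus 238 and 199 in NRP-1 cells. The control libraries differed more for TIMP2 than the NRP-1 libraries did. Its log2 fold change was -1.01 (SE 0.28, adjusted p = 0.115 from edgeR), which DESeq2 called, and it was -0.56 without control replicate 1.

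MMP1, the interstitial collagenase, had 35 and 27 reads in the control, 43 reads in NRP-1 2 and 124 reads in NRP-1 3. The log2 fold change of 1.37 (SE 0.53, adjusted p = 0.204 from edgeR) was 0.41 without NRP-1 replicate 3. MMP14, the membrane metalloproteinase that activates MMP2, had 26 and 25 reads in controls versus 13 and 36 in NRP-1 cells, and TIMP1 had 24 and 41 reads in NRP-1 cells, compared with 32 and 27 in controls, so both overlapped between groups. MMP2, a gelatinase that stromal cells produce, had 1 and 0 reads in controls versus 0 and 1 in NRP-1 cells. TIMP3, which is bound to the matrix, had 8 and 4 reads in controls versus 1 and 2 in NRP-1 cells and was not tested.

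**Figure D4:**
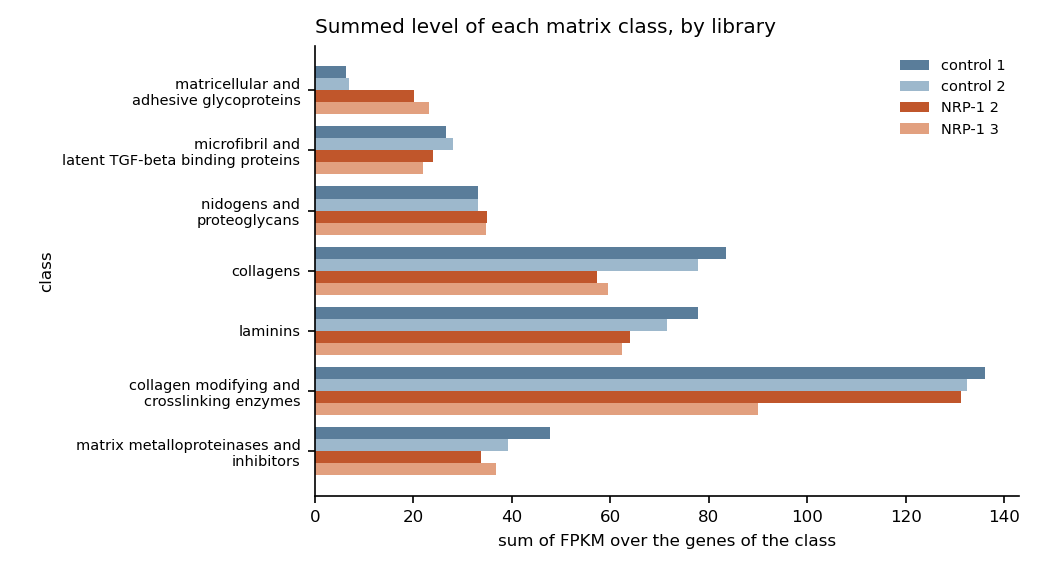
Sum of FPKM over the members of each class with reads, 1 bar for each library. Glycoproteins lie at 6.23 and 7.0 in the controls and 20.01 and 23.2 in the NRP-1 libraries, collagens lie lower in both NRP-1 libraries, and the modifying enzymes are low in NRP-1 3 only.

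Summed over each class, the level per length is a description without a test. The glycoprotein sum was 6.23 and 7.0 FPKM in the control and 20.01 and 23.2 FPKM in the NRP-1 libraries, of which TNC gave 6.14 and 12.55 FPKM. The collagen sum was 83.6 and 77.8 FPKM in the control and 57.2 and 59.5 FPKM in the NRP-1 libraries, and the laminin sum 77.9 and 71.6 against 64.05 and 62.4 FPKM. The microfibril sum was 26.6 and 28.1 FPKM in the control and 23.97 and 21.9 FPKM in the NRP-1 libraries. The modifying enzymes stood at 136.1, 132.5 and 131.2 FPKM in control 1, control 2 and NRP-1 2 and at 89.95 FPKM in NRP-1 3. The metalloproteinases and inhibitors summed to 47.7 and 39.2 FPKM in the control and 33.8 and 36.7 FPKM in the NRP-1 libraries. Nidogens and proteoglycans were at 33.1 and 33.0 FPKM in the control and 34.97 and 34.8 FPKM in the NRP-1 libraries, and this direction was opposite in CPM. All members together came to 411.1 and 389.1 FPKM in the control and 365.1 and 328.5 FPKM in the NRP-1 libraries.

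The NRP-1 libraries differed from each other more than the control libraries did. Over the 40 matrix genes tested, the median absolute log2 difference was 0.5 between the NRP-1 libraries and 0.2 between the control libraries, and over all tested genes with reads in all 4 libraries it was 0.29 and 0.14. The log2 difference was at least 1 between the NRP-1 libraries for 6 of the 40 matrix genes and between the control libraries for 0, where over all genes it was so for 1242 and 312 of 14237. TNC, MMP1 and MMP14 were higher in NRP-1 3, while EFEMP1, FBN1 and P4HA1 were higher in NRP-1 2.

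**Figure D5:**
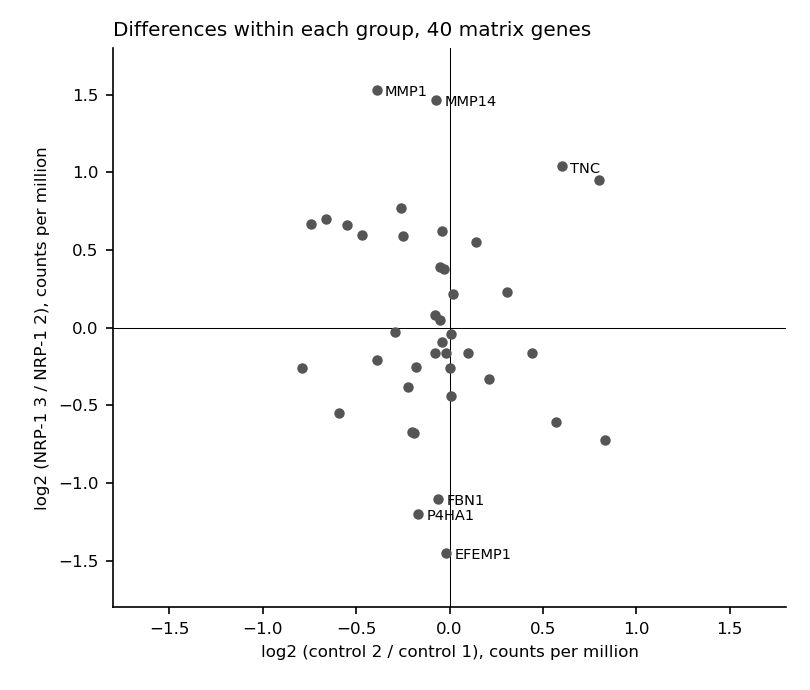
log2 difference in CPM between the 2 control libraries (horizontal) and between the 2 NRP-1 libraries (vertical), 1 point for each of the 40 matrix genes. The 6 named genes differ by at least 1 between the NRP-1 libraries, and none reaches 1 between the controls.

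A wider list of 207 other matrix genes was examined in the same fit, of which 177 had reads and 111 were tested. Of these 45 were higher and 66 lower by sign, with a median log2 fold change of -0.21. edgeR called 5, COL5A2 higher and TNXB, COL16A1, CTSD and CTSB lower, where the background over all genes was 1.09%. DESeq2 called 14, 5 higher and 9 lower, where the background was 6.8%, with 2.86% higher and 3.94% lower. COL5A2, which joins COL5A1 in collagen V, had 229 and 157 reads in NRP-1 cells, compared with 34 and 47 in controls (log2 fold change 2.19, SE 0.29, adjusted p = 0.0444 from edgeR), while COL5A1 itself overlapped between groups. TNXB, a tenascin that shares near-identical sequence with a pseudogene so that its counts are uncertain, had 252 and 164 reads in controls versus 22 and 12 in NRP-1 cells (log2 fold change -3.66, SE 0.38, adjusted p = 0.0365 from edgeR). By sign the tenascins TNC and TNXB went opposite ways, with the TNXB direction resting on these uncertain counts. In control 1 and control 2, TNXB stood at 2.84 and 3.03 FPKM, an order opposite to that of its reads. Its log2 fold change ran from -4.17 to -1.62 over the alternatives and the fits with a library left out. COL16A1, a fibril-associated collagen as collagen XII is, had 146 and 130 reads in controls versus 34 and 45 in NRP-1 cells (log2 fold change -1.86, SE 0.25, adjusted p = 0.0444 from edgeR).

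The lysosomal proteases cathepsin D (CTSD) and cathepsin B (CTSB), which can degrade matrix when secreted, fell. CTSD had 2244 and 2219 reads in NRP-1 cells, compared with 4167 and 3752 in controls (log2 fold change -0.89, SE 0.13, adjusted p = 0.0472 from edgeR), and CTSB had 997 and 990 against 1984 and 1661 reads (log2 fold change -0.94, SE 0.14, adjusted p = 0.0492 from edgeR, and 0.0534 with library totals in place of TMM). CD68, a lysosomal protein on the list of endothelial and blood markers, fell too, with 320 and 281 reads in controls and 107 and 89 in NRP-1 cells (adjusted p = 0.0423 from edgeR). The sum of all 5 markers of that list was 22.8 and 20.2 FPKM in the control and 9.54 and 8.79 FPKM in the NRP-1 libraries, of which CD68 alone gave 20.79 and 18.14 against 6.84 and 5.86 FPKM, and 1 of the 4 tested was called. The endothelial markers VWF, with 9 and 20 reads in controls and 47 and 49 in NRP-1 cells (log2 fold change 1.66, SE 0.43, adjusted p = 0.0998 from edgeR), and CDH5, with 1 and 1 against 15 and 3 reads, lay in the other direction. In the NRP-1 group alone, both libraries had enough VWF reads to pass the filter on low counts. PECAM1 overlapped between groups, as did PTPRC, which marks blood cells and had between 9 and 17 reads. Their part in the cathepsin values was not tested.

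The remaining genes named from the wider list were called by DESeq2 only, and several act in the making of collagen in the endoplasmic reticulum. Of 19 collagen modifying and crosslinking genes of that list that were tested, DESeq2 called 3 higher and 2 lower. The background was 2.86% and 3.94% of all genes. Among those not called, log2 fold changes were -0.07 for SERPINH1, -0.13 for P3H1, -0.26 for CRTAP, -0.17 for P3H4, 0.09 for COLGALT1 and 0.13 for FKBP14. P4HB, the subunit that both P4HA1 and P4HA2 need, had 21169 and 20139 reads in controls versus 14034 and 11114 in NRP-1 cells (log2 fold change -0.78, SE 0.16, adjusted p = 0.0747 from edgeR). PPIB, a prolyl isomerase of the collagen modification complex, had 2503 and 2596 reads in controls versus 1757 and 1350 in NRP-1 cells, a log2 fold change of -0.77. In controls P4HB averaged 959 FPKM and PPIB 300 FPKM, far above P4HA1 at 46.7 FPKM and P4HA2 at 32.5 FPKM. Whether the lower values of P4HB and PPIB bear on collagen was not tested. The prolyl 3-hydroxylase P3H2 had 18 and 42 reads in NRP-1 cells, compared with 2 and 5 in controls. Only the NRP-1 libraries had enough P3H2 reads to pass the filter on low counts, which limits what its call means. SEC23A, a coat protein of the vesicles that export collagen, had 519 and 559 reads in controls versus 940 and 915 in NRP-1 cells, a log2 fold change of 0.72. The basement membrane protein FREM2 had 101 and 138 reads in controls versus 211 and 281 in NRP-1 cells. The membrane protease ADAM15 had 1791 and 2161 reads in NRP-1 cells, compared with 2978 and 2996 in controls, and the laminin receptor BCAM had 2582 and 2280 against 3602 and 3469.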

How the data were processed

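RNA-Seq was run on 2 control and 2 NRP-1 libraries. The authors deposited an expected count per gene and library, an estimate that need not be whole (32.8% of values above 0 were not, with a tolerance of 0.005 reads), and FPKM values, which scale reads by length and by the mapped total. The processing notes name bcl2fastq 2.16, Bowtie2 2.2.5, HISAT2 2.0.1 and RSEM, with GRCh38 and hg19 and no role for either, so no gene coordinates are given. RSEM can split reads between genes that share sequence, and whether counting used strand is not given in the sources used here. A further deposited table of the authors' own comparison (group means, ratios and a probability) was not used. RefSeq names matched 99.4% of the gene IDs, and promoter windows are from RefSeq, GRCh38.p14.

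After rounding, the expected counts went into edgeR 4.0.16 (R 4.3.3), with filterByExpr, TMM, glmQLFit at default settings and glmQLFTest. The model held group alone. CPM used TMM library sizes. The standard error was the absolute log2 fold change divided by the square root of F. Alternatives were DESeq2 1.42.0, limma 3.58.1 with a pseudocount of 1 or 0.1 on log2 FPKM for genes with a mean of at least 0.5 FPKM, other scalings and filters (none, or a mean of at least 20 reads), and leaving out each library. The setting legacy = FALSE of glmQLFit was added after the data had been seen. Python 3.11.15 and matplotlib 3.10.9 made the tables and plots. Scripts were tested on simulated data.

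The members and gene lists were chosen with earlier results of these data known. Values in every library are given for members called by edgeR or DESeq2, for members with a mean of at least 10 reads, groups that do not overlap and a log2 fold change of 1 or more in size, and for the most abundant member of each class. From the wider list, the 12 genes with the lowest p among those called are named. The same values of other members were added for completeness. The 2 libraries of a group differed beyond counting noise (chi-square per degree of freedom 3.43 for control and 23.3 for NRP-1), and each was kept as its own sample. These values cannot tell separate cultures from repeated preparations of the same culture.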

Additional observations from a re-analysis of the deposited data

How the results depend on the processing

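The count of matrix members called (2 by edgeR) was 9 with DESeq2, and that of the wider list (5) was 14. Both counts were 0 without a filter on low counts (19 members and 33 genes of the wider list at an unadjusted p under 0.05) and 0 with limma on log2(FPKM + 1) or on log2(FPKM + 0.1), where 7 and 3 genes of all were called and 14 members and 26 genes of the wider list had an unadjusted p under 0.05. The other scalings and filters kept TNC and LAMA3, library totals without TMM lost CTSB and left 4 calls in the wider list, and legacy = FALSE added COL6A2. With 1 library left out, the members called ran from 0 to 27 and the wider list from 0 to 48. No gene of all was called without control replicate 1 (10 and 8 genes of the lists at an unadjusted p under 0.05) or without control replicate 2 (11 and 23), while leaving out NRP-1 replicate 2 gave 5402 and leaving out NRP-1 replicate 3 gave 4134. In these fits the spread comes from the remaining pair, and the control pair is the closer one. Over the 53 genes with a fold change followed here, no direction reversed in 474 values with all libraries. These include the setting legacy = TRUE, which repeated the main fit, so its values could not reverse. With a library left out, the log2 fold change reached the other side of zero for LTBP4 (-0.33 to 0.33), COL4A5 (-0.05 to 0.34), COL5A1 (-0.64 to 0.0), LAMB3 (-0.34 to 0.46), PLOD1 (-0.34 to 0.0), PLOD2 (-0.18 to 0.03), MMP14 (-1.02 to 0.42) and TIMP1 (-0.36 to 0.4). The log2 ratio of the class sums of nidogens and proteoglycans was 0.08 in FPKM and -0.04 in CPM. The number of the 40 members tested whose groups did not overlap was 31 in CPM and 30 in FPKM, where 56.2% of all genes tested did not overlap in CPM. No paired analysis was possible because the groups share only replicate number 2. Members with under about 10 reads per library could not be tested at this depth.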
